A study of Mus musculus with 24 samples.

Results

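Pbx2, Pbx3, Pbx4, Meis1, Meis2, Meis3, Pknox1 and Pknox2 are 8 homeobox genes of the PBX, MEIS and PREP families. They were taken from the expression tables by their symbols, 8 of 26636 genes, and all 8 were among the 13801 genes with enough signal to test (at least 1 FPKM in at least 3 libraries). The choice was made with their values across the 8 groups of the study in view. Their levels and differences are therefore given as a description, with standard errors and intervals but no p-values of their own. Whether a member passed a p threshold is also given, as a description of the same values and not as a test.

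The RNA-seq series asked how blocking the BET bromodomains, protein modules that read acetylated histones, acts on neural progenitor cells set to differentiate. The cells came from the cortex of C57BL/6 mouse embryos at embryonic day 12, were grown with B27 supplement and basic fibroblast growth factor, and were used at passage 3. In differentiation medium they received (+)-JQ1, the enantiomer that binds BET bromodomains, or (−)-JQ1, its inactive mirror image. Doses were 0.2 and 0.5 µM and times 12 and 24 h, with 3 independent preparations in each group, which makes 8 groups and 24 libraries. The labels name no engineered allele, every group received 1 of the enantiomers, and all were in differentiation medium, so each (+)-JQ1 group is compared with the (−)-JQ1 group of the same dose and time. Each preparation is a passaged culture of cortical progenitor cells, so a value is an average over all cells of a culture. Fewer cells of a type and less RNA per cell cannot be told apart.

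PBX, MEIS and PREP proteins (PREP is the protein name for Pknox) have an atypical homeodomain with an extra loop and belong to the TALE class. A PBX protein pairs with a MEIS or a PREP protein, which brings it into the nucleus, and such pairs bind DNA alone or together with HOX and other homeodomain proteins. In the forebrain, MEIS2 and PBX proteins are known from the lateral ganglionic eminence, the striatum and the neurons made for the olfactory bulb, and MEIS1 and MEIS2 also mark proliferating progenitors.

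Promoter sequences are shown for the members with a RefSeq entry whose levels differed most between the enantiomers, Meis2 on the higher side and Pbx2 and Meis3 on the lower side. RefSeq promoters (build GRCm38.p6) were matched for 5 of the 8 members. Each line is the 250 bases before the transcript start of that entry, 5′ to 3′ on the strand of the gene, with CG pairs in capitals. The windows are Meis2 at chr2:116064620-116064869 on the minus strand, Pbx2 at chr17:34592009-34592258 on the plus strand and Meis3 at chr7:16175145-16175394 on the plus strand.
Meis2: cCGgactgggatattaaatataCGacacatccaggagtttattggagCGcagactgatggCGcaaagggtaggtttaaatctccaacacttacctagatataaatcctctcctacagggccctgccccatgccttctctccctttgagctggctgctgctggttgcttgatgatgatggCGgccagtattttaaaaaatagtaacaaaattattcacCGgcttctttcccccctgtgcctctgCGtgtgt
Pbx2: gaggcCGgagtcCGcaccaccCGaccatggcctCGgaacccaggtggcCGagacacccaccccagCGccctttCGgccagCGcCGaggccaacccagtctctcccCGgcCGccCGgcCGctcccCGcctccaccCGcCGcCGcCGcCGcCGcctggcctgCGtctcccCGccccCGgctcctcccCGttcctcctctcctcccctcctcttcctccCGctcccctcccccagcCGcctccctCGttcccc
Meis3: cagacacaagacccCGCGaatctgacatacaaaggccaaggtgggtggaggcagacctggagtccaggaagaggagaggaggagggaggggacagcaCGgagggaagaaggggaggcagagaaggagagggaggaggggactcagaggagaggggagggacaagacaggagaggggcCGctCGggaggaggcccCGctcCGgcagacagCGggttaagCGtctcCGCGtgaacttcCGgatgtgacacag

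The Meis2 window held 7 CG pairs and 47.6% G and C, close to the medians of 6 pairs and 52.4% over all 32851 windows of the same length. The Pbx2 window held 27 CG pairs and 77.6% G and C, and the Meis3 window 12 pairs and 63.6%. Both strands of the 5 matched windows were searched for TGACAG, a core bound by MEIS and PREP proteins, TGATTNAT, a PBX-HOX site, the longer joint PBX-PREP site, which contains the first, and CACGTG, the E-box bound by MYC. These motifs were in none of the 5 windows, and were in 15.9%, 2.82%, 0.198% and 6.02% of all windows. Expression of the named members is described next, in FPKM (fragments scaled to transcript length and to the mapped total), a unit per length that allows genes to be set side by side.

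Meis2 was the most abundant member, with a mean of 39.9 FPKM over the 24 libraries, above 84.5% of the genes tested. It was followed by Pknox2 at 20.5, Meis1 at 19.3, Pbx3 at 15.2, Meis3 at 14.8, Pbx2 at 9.62, Pknox1 at 8.90 and Pbx4 at 3.41 FPKM. The ranges of neighbours in this order overlapped, except for Pknox1 and Pbx4. Under (+)-JQ1 the order changed in the middle. The median of the 12 (−)-JQ1 libraries was 8.98 FPKM for Pbx3 and 11.8 for Pbx2, while that of the 12 (+)-JQ1 libraries was 21.2 for Pbx3 and 7.12 for Pbx2.

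**Figure D1:**
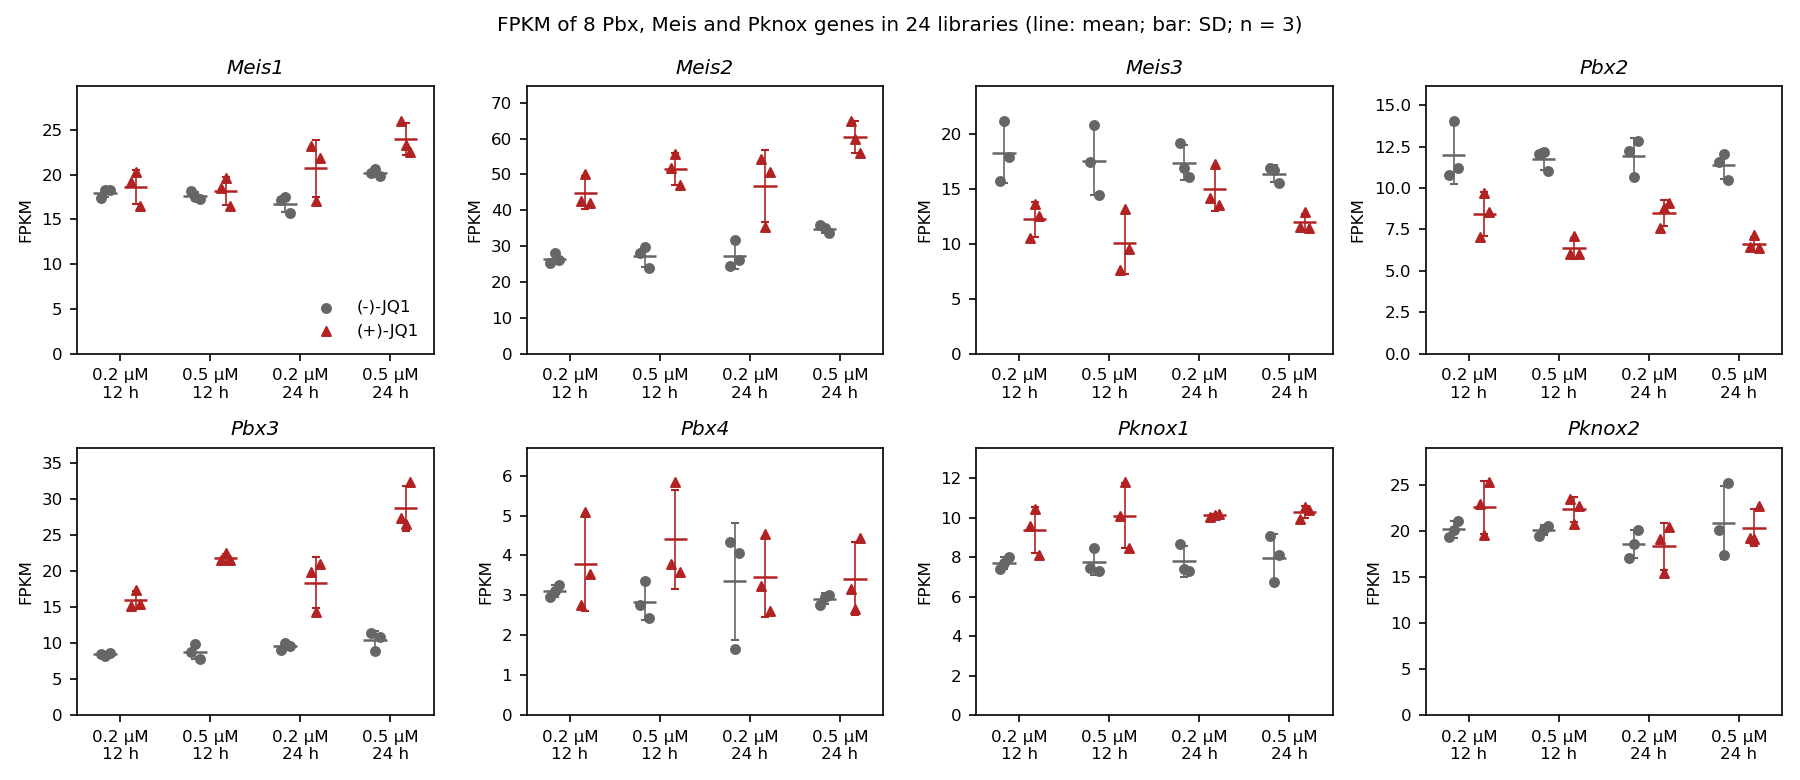
FPKM of the 8 members in each of the 24 libraries, by dose and time, with (−)-JQ1 as grey circles and (+)-JQ1 as red triangles. Lines are means and bars SDs of 3 libraries. Pbx3 and Meis2 stand higher and Pbx2 lower in (+)-JQ1 at every dose and time, while Pknox2 shows no such offset.

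MEIS2, a partner that stabilises PBX on DNA and is used in striatal and olfactory neurogenesis, had the higher transcript level in (+)-JQ1 at each dose and time. At 0.2 µM and 12 h Meis2 was at 25.4, 27.99 and 26.1 FPKM in the (−)-JQ1 libraries and at 42.5, 50.2 and 42.0 in the (+)-JQ1 libraries. At 12 h and 0.5 µM Meis2 was at 28.2, 29.9 and 23.9 FPKM in (−) and at 51.8, 55.7 and 47.0 in (+). All 6 libraries with the active compound lay above all 6 with the inactive one at this time. At 0.2 µM and 24 h Meis2 was at 24.3, 31.7 and 26.0 FPKM in (−) and at 54.2, 35.4 and 50.6 in (+). With 0.5 µM for 24 h, it was at 35.8, 35.1 and 33.6 FPKM in (−) and at 64.9, 60.0 and 56.0 in (+). The groups did not overlap at either dose at 24 h, although the second (+) library at 0.2 µM stood below the others.

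The differences of Meis2 on the log2(FPKM + 1) scale, (+) minus (−), were 0.74 ± 0.13 (SE, 95% interval 0.46 to 1.01) at 0.2 µM and 0.89 ± 0.13 (0.62 to 1.17) at 0.5 µM after 12 h. After 24 h they were 0.74 ± 0.13 (0.46 to 1.02) and 0.77 ± 0.13 (0.50 to 1.05). As ratios of FPKM + 1 these are 1.67, 1.86, 1.67 and 1.71. Between 96.7% and 97.7% of the genes tested had a smaller signed difference in each comparison. A step from 0.2 to 0.5 µM changed the enantiomer difference of Meis2 by 0.16 ± 0.19 (−0.23 to 0.55) at 12 h and by 0.03 ± 0.19 (−0.36 to 0.43) at 24 h, so a difference between the doses was within the error. Meis2 was also at a higher level at 0.5 than at 0.2 µM within (−)-JQ1 at 24 h, by 0.35 ± 0.13 on the log2 scale, without a call. The 3 libraries each did not overlap, and the lowest, the first at 0.2 µM with 24.3 FPKM, is among those that stand apart as described below.

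MEIS3, a family member best known from the hindbrain, stood lower in (+)-JQ1. After 12 h Meis3 was at 15.7, 21.2 and 17.9 FPKM in (−) against 10.5, 13.6 and 12.5 in (+) at 0.2 µM. At 0.5 µM the values were 17.5, 20.8 and 14.4 FPKM against 7.59, 13.1 and 9.55. The (+) libraries lay below the (−) libraries at each dose. After 24 h Meis3 was at 19.1, 16.9 and 16.0 FPKM in (−) against 14.2, 17.3 and 13.6 in (+) at 0.2 µM, where the groups overlapped. At 0.5 µM it was at 16.9, 16.7 and 15.5 FPKM against 11.5, 12.9 and 11.4, with no overlap. The log2 differences of Meis3 were −0.54 ± 0.16 and −0.76 ± 0.16 (SE) after 12 h, and −0.20 ± 0.16 and −0.43 ± 0.16 after 24 h, at 0.2 and 0.5 µM. The interval at 0.2 µM and 24 h, −0.53 to 0.12, included 0. The value of −0.43 did not pass the threshold with median-of-ratios scaling (−0.34) or without a filter on low values.

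MEIS1, a cofactor of HOX proteins and a regulator of progenitor growth, was nearly level between the enantiomers at 12 h and slightly higher in (+)-JQ1 at 24 h. Meis1 was at 17.2 to 18.3 FPKM in the 6 (−) libraries and at 16.5 to 20.3 in the 6 (+) libraries at 12 h. At 24 h and 0.2 µM it was at 17.1, 17.5 and 15.7 FPKM in (−) and 23.2, 17.1 and 21.9 in (+). At 24 h and 0.5 µM it was at 20.2, 20.7 and 19.8 FPKM in (−) and 26.0, 23.4 and 22.5 in (+). The last of these pairs of groups did not overlap and the others did. The log2 differences were 0.05 ± 0.10 and 0.04 ± 0.10 (SE) at 12 h and 0.28 ± 0.10 (0.07 to 0.49) and 0.23 ± 0.10 (0.02 to 0.44) at 24 h, at 0.2 and 0.5 µM. Leaving out the second (+) library at 0.2 µM and 24 h together with the first (−) library there, which stand apart as described below, put the first of the 24 h values at 0.42. With median-of-ratios scaling the second was 0.32 and passed the threshold. From 12 to 24 h the enantiomer difference of Meis1 changed by 0.23 ± 0.14 (−0.06 to 0.53) at 0.2 µM and by 0.19 ± 0.14 (−0.11 to 0.49) at 0.5 µM. A difference between the times was thus within the error.

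The 3 Meis genes thus differed among themselves, and their balance shifted towards Meis2. Meis2 made up 40.2% to 49.1% of the summed FPKM of Meis1, Meis2 and Meis3 in the 12 (−)-JQ1 libraries and 50.8% to 66.5% in the 12 (+)-JQ1 libraries, with no overlap. Meis3 made up 22.5% to 31.6% in (−) and 9.74% to 24.7% in (+). The share of Meis2 by group was 42.3% ± 0.997 in (−) and 59.2% ± 0.396 in (+) at 0.2 µM and 12 h (SD, n = 3 each), and 43.6% ± 0.627 and 64.6% ± 1.81 at 0.5 µM and 12 h. At 24 h it was 44.4% ± 3.94 and 56.3% ± 4.78 at 0.2 µM, and 48.8% ± 0.351 and 62.7% ± 0.633 at 0.5 µM. The sum itself ran from 55.5 to 73.0 FPKM in (−) and from 69.7 to 102 FPKM in (+).

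PBX3, a partner of MEIS proteins expressed in developing forebrain and hindbrain, showed the widest difference of the 8 members. At 12 h Pbx3 was at 8.40, 8.24 and 8.62 FPKM in (−) and 15.1, 17.4 and 15.3 in (+) at 0.2 µM. At 12 h and 0.5 µM it was at 8.68, 9.83 and 7.79 FPKM in (−) and 21.5, 22.5 and 21.5 in (+). The replicates were close, and the (+) libraries at 0.5 µM all lay above those at 0.2 µM. At 24 h Pbx3 was at 9.05, 9.96 and 9.59 FPKM in (−) and 19.8, 14.3 and 21.0 in (+) at 0.2 µM. With 0.5 µM for 24 h, it was at 11.4, 8.91 and 10.8 FPKM in (−) and 27.3, 26.5 and 32.3 in (+). Over all doses and times the 12 (−) libraries spanned 7.79 to 11.4 FPKM and the 12 (+) libraries 14.3 to 32.3, with no overlap.

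The log2 differences of Pbx3 were 0.84 ± 0.12 (SE, 0.59 to 1.10) at 0.2 µM and 1.23 ± 0.12 (0.98 to 1.48) at 0.5 µM after 12 h. After 24 h they were 0.86 ± 0.12 (0.61 to 1.11) and 1.39 ± 0.12 (1.13 to 1.64). As ratios of FPKM + 1 these are 1.79, 2.34, 1.82 and 2.62, smaller than ratios of the FPKM themselves, and 98.3% to 99.1% of the genes tested had a smaller signed difference. Pbx3 was the member whose enantiomer difference grew with dose by more than its interval. The growth was 0.39 ± 0.17 (0.03 to 0.74) at 12 h and 0.52 ± 0.17 (0.17 to 0.88) at 24 h, and it was not called at either time by the adjusted threshold over all genes. Within (+)-JQ1 the level at 0.5 µM exceeded that at 0.2 µM by 0.43 ± 0.12 at 12 h and 0.63 ± 0.12 at 24 h, while within (−)-JQ1 the same steps were 0.05 ± 0.12 and 0.10 ± 0.12.

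PBX2, a broadly expressed relative, ran the opposite way. Pbx2 was at 10.8, 14.1 and 11.2 FPKM in (−) and 7.07, 9.72 and 8.53 in (+) at 0.2 µM and 12 h. At 12 h and 0.5 µM it was at 12.0, 12.2 and 11.0 FPKM in (−) and 6.00, 7.11 and 6.00 in (+). At both doses the (+) libraries were the lower ones, without overlap. At 24 h the values were 12.2, 10.7 and 12.9 FPKM against 7.57, 8.79 and 9.07 at 0.2 µM. With 0.5 µM for 24 h, they were 11.6, 12.1 and 10.5 FPKM against 6.42, 7.14 and 6.35. The 12 (−) libraries, at 10.5 to 14.1 FPKM, lay above the 12 (+) libraries, at 6.00 to 9.72.

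The log2 differences of Pbx2 were −0.47 ± 0.12 and −0.79 ± 0.12 (SE) at 12 h and −0.45 ± 0.12 and −0.70 ± 0.12 at 24 h, at 0.2 and 0.5 µM, or 0.724, 0.577, 0.733 and 0.618 as ratios of FPKM + 1. The difference between the doses was −0.33 ± 0.16 (−0.67 to 0.02) at 12 h and −0.25 ± 0.16 (−0.59 to 0.10) at 24 h. PBX4, better known from the testis, was the least abundant member. Pbx4 ranged from 1.66 to 4.33 FPKM in the 12 (−) libraries and from 2.59 to 5.83 in the 12 (+) libraries. Its groups overlapped except at 0.5 µM and 12 h, where it was at 2.75, 3.35 and 2.43 FPKM in (−) and 3.79, 5.83 and 3.59 in (+), a log2 difference of 0.48 ± 0.23 (−0.00 to 0.96). This difference was called with median-of-ratios scaling (0.57) and not as reported.

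The ratio of Pbx3 to Pbx2 sums up the opposite directions of the pair. It was 0.778, 0.586 and 0.769 in the (−) libraries and 2.13, 1.79 and 1.80 in the (+) libraries at 0.2 µM and 12 h. At 12 h and 0.5 µM it was 0.722, 0.807 and 0.707 against 3.58, 3.16 and 3.58. Pbx2 was thus the more abundant of the pair in all 6 (−) libraries at 12 h and Pbx3 in all 6 (+) libraries. At 24 h the ratio was 0.740, 0.932 and 0.745 against 2.62, 1.63 and 2.32 at 0.2 µM. With 0.5 µM for 24 h, it was 0.984, 0.739 and 1.03 against 4.25, 3.71 and 5.08. The range over 12 libraries was 0.586 to 1.03 in (−) and 1.63 to 5.08 in (+).

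**Figure D2:**
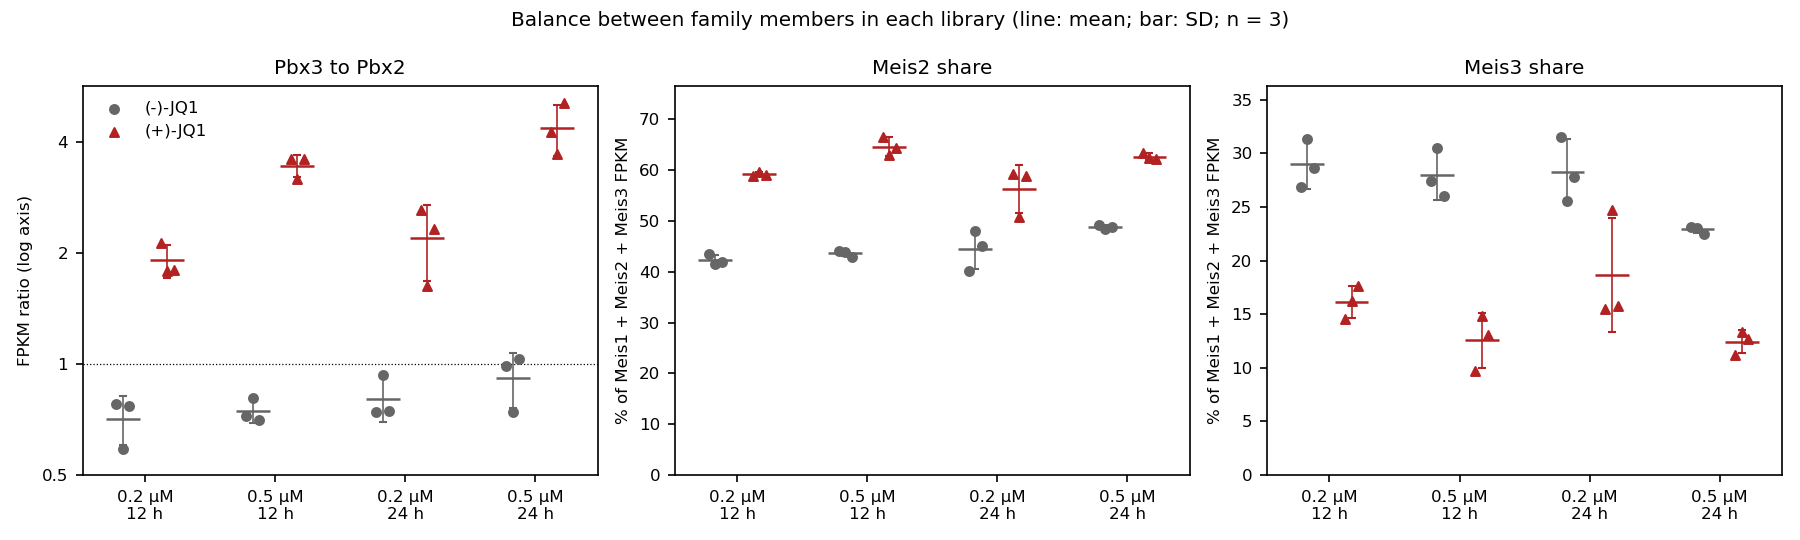
Balance between family members in each library: the FPKM ratio of Pbx3 to Pbx2 on a log axis, and the percent of the summed Meis1, Meis2 and Meis3 FPKM that is Meis2 or Meis3, by dose and time, with (−)-JQ1 as grey circles and (+)-JQ1 as red triangles; lines are means and bars SDs of 3 libraries. The ratio lies between 0.586 and 1.03 in (−)-JQ1 and between 1.63 and 5.08 in (+)-JQ1.

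Of the PREP genes, whose products pair with PBX in place of MEIS proteins, Pknox1 stood modestly higher in (+)-JQ1 and Pknox2 differed little. Pknox1 was at 6.76 to 9.09 FPKM in the 12 (−) libraries and at 8.13 to 11.8 in the 12 (+) libraries, with medians of 7.57 and 10.1. At 0.2 µM and 24 h it was at 8.69, 7.40 and 7.30 FPKM in (−) and 10.1, 10.2 and 10.2 in (+). At 24 h and 0.5 µM the values were 9.09, 6.76 and 8.12 against 9.93, 10.5 and 10.4. The (+) libraries were the higher ones at 24 h, and the groups touched at 0.5 µM and 12 h, where the lowest (+) library stood at 8.48 and the highest (−) library at 8.50 FPKM. The log2 differences of Pknox1 were 0.25 ± 0.12 and 0.34 ± 0.12 (SE) at 12 h and 0.35 ± 0.12 and 0.34 ± 0.12 at 24 h. Each interval lay above 0, the lowest bound being 0.01 at 0.2 µM and 12 h.

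Pknox2, a form of PREP found mainly in brain and muscle, was at 17.1 to 25.2 FPKM in (−) and 15.5 to 25.3 in (+). Its groups overlapped except at 0.5 µM and 12 h, where it was at 19.5, 20.3 and 20.5 FPKM in (−) and 23.5, 20.8 and 22.8 in (+). The log2 differences of Pknox2 were 0.15 ± 0.12 and 0.15 ± 0.12 (SE) at 12 h and −0.03 ± 0.12 and −0.02 ± 0.12 at 24 h. The intervals ran from −0.11 to 0.41 and from −0.11 to 0.40 at 12 h, and from −0.29 to 0.23 and from −0.28 to 0.23 at 24 h.

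**Figure D3:**
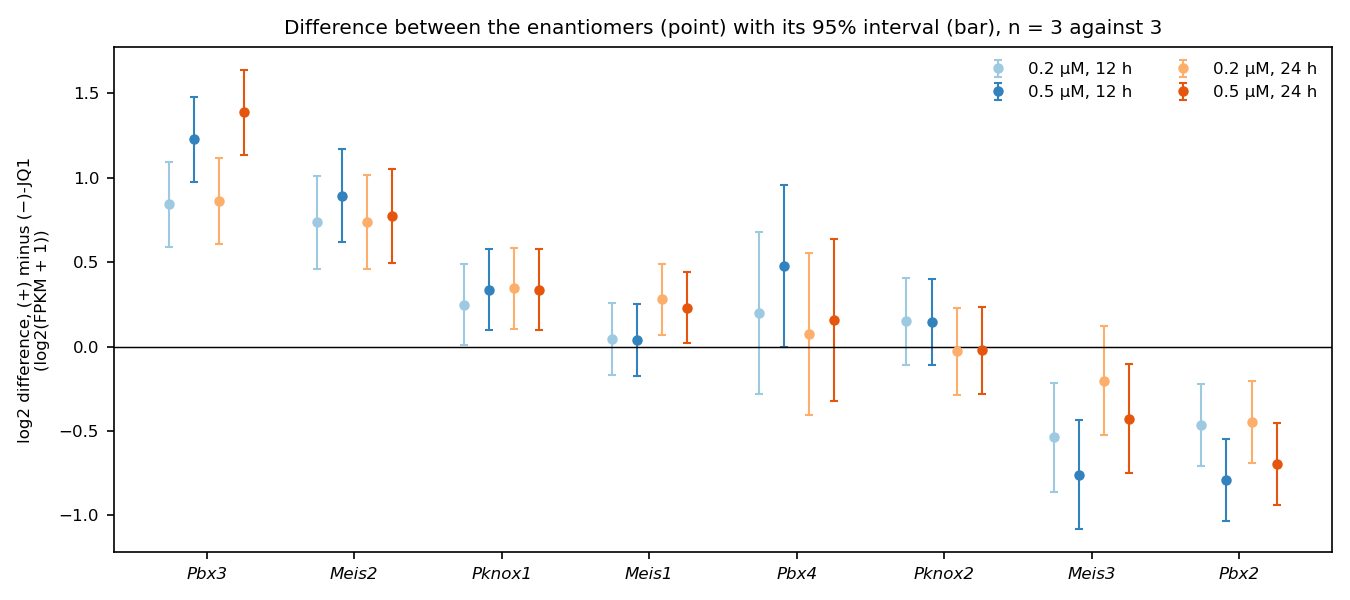
Difference between (+)- and (−)-JQ1 in log2(FPKM + 1) for each member (point) with its 95% interval (bar) at each dose and time, 3 libraries against 3. Pbx3 and Meis2 lie above 0 and Pbx2 below 0 at all 4 combinations of dose and time, and the points of Pbx3 are higher at 0.5 than at 0.2 µM.

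A gene was called when its limma p, adjusted by Benjamini-Hochberg over all genes tested, was under 0.05. By this rule 4 of the 8 members were called at 0.2 µM and 12 h, Pbx3 and Meis2 higher and Pbx2 and Meis3 lower, where 27.9% of all genes were called, 8.23% higher and 19.6% lower. With 0.5 µM for 12 h, 5 were called, those 4 and Pknox1, beside 38.3% of all genes (12.2% higher, 26.1% lower). At 0.2 µM and 24 h 5 were called, Pbx3, Meis2, Meis1 and Pknox1 higher and Pbx2 lower, beside 32.8% (11% higher, 21.8% lower). At 24 h and 0.5 µM 5 were called, Pbx3, Meis2 and Pknox1 higher and Pbx2 and Meis3 lower, beside 38.2% (13.7% higher, 24.5% lower). The libraries of the compared groups did not overlap for 5, 6, 4 and 6 of the members in these comparisons, against 47%, 58.2%, 34% and 48.1% of all genes. The members were chosen on these values, so the counts are given beside the background and nothing is read from them. The median difference of the 8 was 0.17, 0.24, 0.18 and 0.19 on the log2 scale, against −0.07, −0.10, −0.07 and −0.05 over all genes tested.

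Calls of the smaller differences were lost when 1 or another single library was left out, while the differences kept their sign. Meis3 at 0.2 µM and 12 h was not called without the second (−) or the first (+) library, Meis3 at 0.5 µM and 24 h not without the first or second (−) or the first or the third (+) library, and Meis1 at 0.2 µM and 24 h not without the third (−), first (+) or the third (+) library. Pknox1 lost its call at 0.5 µM and 12 h without the first or the third (−) or the first or second (+) library, at 0.2 µM and 24 h without the second or the third (−) or the first or the third (+) library, and at 0.5 µM and 24 h without the second (−) or the second or the third (+) library. Pbx3 and Meis2 were called in all 4 comparisons under each of the 33 alternatives, with differences between 0.76 and 1.48 for Pbx3 and between 0.62 and 1.01 for Meis2. Pbx2 was called under each of them except in a fit to the 2 groups alone at 0.2 µM and 24 h. Of the 33 alternatives, 24 each left out 1 library. Most of those libraries lay outside the groups of a given comparison, and leaving them out does not change its difference. The members were chosen on these values, so the repeated calls describe the fit and are not a test.

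Time and dose were compared within each enantiomer. Between 12 and 24 h in (−)-JQ1, over both doses, limma called 0 of the 8 members and 15.6% of all genes. An unadjusted p under 0.05 was found for 1 member and for 4121 of the 13801 genes tested. In (+)-JQ1 at 0.2 µM limma called 0 members and 3.3% of all genes. Here 1 member and 2151 genes were at an unadjusted p under 0.05, and Pknox2 stood at −0.29 ± 0.12 (SE). In (+)-JQ1 at 0.5 µM limma called 1, Meis1, at a difference of 0.38 ± 0.10 (SE), beside 4.21% of all genes. Pbx3 stood at 0.37 ± 0.12 there without a call. In (−)-JQ1 at 0.5 µM Meis1 was also higher at 24 h, at 19.8 to 20.7 FPKM against 17.2 to 18.2 at 12 h. Its enantiomer difference at 0.5 µM changed from 12 to 24 h by 0.19 ± 0.14 (−0.11 to 0.49), without a call, so the rise of Meis1 is not shown to be particular to (+)-JQ1. The call of Meis1 was lost without the first or the third (+) library at 0.5 µM and 12 h, without the first or second at 24 h, and with scaling by the median of ratios.

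From 0.2 to 0.5 µM in (+)-JQ1, limma called 0 members at 12 h, beside 0.645% of all genes, and 1 at 24 h, Pbx3, beside 2.15%. At 12 h 2 members and 959 of the 13801 genes tested were at an unadjusted p under 0.05. Meis2 stood 0.38 ± 0.13 higher and Pbx2 0.31 ± 0.12 lower (log2 scale, SE) at the higher dose in (+)-JQ1 at 24 h, without a call. In (−)-JQ1 at 12 h limma called 0 members and 0% of all genes, with 0 members and 59 genes at an unadjusted p under 0.05. At 24 h it called 0 members and 0.00725% of all genes, with 2 members and 1673 genes at an unadjusted p under 0.05.

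For the partners, the 39 Hox genes listed, whose products form the best known complexes with PBX, were nearly silent. In every library each was at or below 0.134 FPKM, 23 were listed at 0 throughout, and 0 reached the level for testing. Of 9 other TALE homeobox genes 6 were tested. Irx2, of the Iroquois family of patterning genes, rose in (+)-JQ1 at all 4 combinations, by log2 0.47 ± 0.13, 0.35 ± 0.13, 0.49 ± 0.13 and 0.52 ± 0.13 (SE, limma adjusted p = 0.0112, 0.0428, 0.00724 and 0.00400), in the order 0.2 µM and 12 h, 0.5 µM and 12 h, 0.2 µM and 24 h, 0.5 µM and 24 h. Its mean was 2.82 ± 0.269 FPKM in (−) and 4.47 ± 0.416 in (+) at 0.5 µM and 24 h (SD, n = 3 each). Tgif1, a TALE repressor that acts in TGF-beta signalling, fell at 12 h by 0.55 ± 0.15 at 0.2 µM and by 0.39 ± 0.15 at 0.5 µM on the log2 scale (limma adjusted p = 0.00693 and 0.0417), and Tgif2, its close relative, by 0.44 ± 0.15 at 0.5 µM and 12 h (0.0225).

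Irx5 rose at 0.5 µM and 12 h by 0.55 ± 0.19 (limma adjusted p = 0.0269). Irx1 and Irx3 were not called, at differences of −0.14 to 0.32 and −0.02 to 0.19. The medians of the 6 tested genes were −0.03, −0.05, 0.23 and 0.11. The calls of Tgif1 at 0.2 µM and 12 h and of Irx2 at 0.5 µM and 24 h held under each alternative run for them in which they were tested. Irx2 was not called at 0.2 µM and 12 h without the first (−) library, nor at 0.2 µM and 24 h without the libraries that stand apart, and the 0.5 µM and 12 h calls of the list fell to 0 higher or 0 lower when single libraries of those groups were left out.

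Cofactors of PBX and MEIS proteins, among them histone deacetylases, NCoR proteins and acetyltransferases, were tested for 12 genes, with medians of 0.08, 0.10, 0.13 and 0.10. Limma called 0 of them at 0.2 µM and 12 h (0 at an unadjusted p under 0.05). It called 0 at 12 h with the higher dose (4 unadjusted) and 0 at 24 h with the higher dose (0 unadjusted). Of the 13801 genes tested, 5122, 6362 and 6216 were at an unadjusted p under 0.05 in these comparisons, in that order. At 0.2 µM and 24 h Mll1, a histone methyltransferase, Crebbp and Ep300, paired acetyltransferases with a bromodomain, rose by log2 0.45 ± 0.16, 0.40 ± 0.15 and 0.39 ± 0.12 (SE, limma adjusted p = 0.0402, 0.0430 and 0.0183). In that comparison 3 of the 12 were thus called higher and 0 lower, beside 32.8% of all genes (11% higher, 21.8% lower). The count is not read as a result about the cofactors. Without the third (−) or the third (+) library of those groups 0 of the 12 were called higher there.

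Genes of the lineages in which MEIS2 and PBX3 are known to act were moved unevenly. Of 19 ganglionic eminence and striatal factors 16 were tested. In (+)-JQ1, 1, 4, 4 and 8 rose and 1 fell in each comparison, with medians of 0.09, 0.16, 0.26 and 0.43 against −0.07, −0.10, −0.07 and −0.05 over all genes. By the same rule 8.23%, 12.2%, 11% and 13.7% of all genes rose and 19.6%, 26.1%, 21.8% and 24.5% fell. Ebf1, a factor of striatal neurons, was at 2.20 ± 0.623 FPKM in (−) and 7.58 ± 1.75 in (+) at 0.5 µM and 24 h (SD, n = 3 each). It rose by log2 1.12 ± 0.21, 1.26 ± 0.21, 1.30 ± 0.21 and 1.42 ± 0.21 (SE, limma adjusted p = 0.000314, 5.56e-05, 5.62e-05 and 1.26e-05). Its 12 (−) libraries, at 1.58 to 3.74 FPKM, lay below its 12 (+) libraries, at 4.94 to 9.39.

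Dlx2, a factor of GABA neuron precursors, went from 19.3 ± 4.21 to 38.7 ± 11.3 FPKM at 0.5 µM and 24 h (log2 0.95 ± 0.30, limma adjusted p = 0.0179), and Sp9, which acts beside the Dlx genes, from 7.05 ± 0.615 to 13.2 ± 0.929 (0.82 ± 0.28, 0.0247). Dlx2 was not called at 12 h at either dose, and Sp9 not at 0.2 µM and 12 h. The call of Sp9 at 0.2 µM and 24 h (limma adjusted p = 0.0495) was lost in 21 of 33 alternatives and that of Dlx2 (0.0400) in 8. The call of Dlx2 at 0.5 µM and 24 h was lost without the second (−) or the third (+) library, and that of Sp9 without the second or the third (−) or the first or the third (+) library. Bcl11b, Pax6, Sp8 and Zfp503 also rose at 0.5 µM and 24 h, by 0.45 to 0.55 on the log2 scale. Etv1, a factor of dopaminergic olfactory neurons and of glial precursors, was the gene that fell, from 62.9 ± 11.6 to 23.04 ± 3.40 FPKM at 0.5 µM and 24 h (log2 −1.40 ± 0.20, limma adjusted p = 9.31e-06). At 0.2 µM its call was lost at 12 h without the second or the third (−) or the first or second (+) library and with median-of-ratios scaling, and at 24 h without the third (−) or the second (+) library, with library weights and in the fit to those groups alone, which left 0 genes lower.

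The count of 8 higher at 0.5 µM and 24 h was 4 without the second (−), the first (+) or the third (+) library of those groups. The counts of 4 were 1 without the first or the third (−) or second (+) library at 0.5 µM and 12 h, and 1 without the first (+) library at 0.2 µM and 24 h. With scaling by the median of ratios the first 3 counts were 4, 7 and 7. With the replicate block the second was 2.

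Retinoic acid signalling, which induces Meis and Pbx genes in many cells, was tested for 10 of 18 listed genes. In each comparison 1 rose, and 5, 7, 5 and 6 fell, with medians of −0.61, −0.71, −0.37 and −0.49. Over all genes tested 8.23%, 12.2%, 11% and 13.7% were called higher and 19.6%, 26.1%, 21.8% and 24.5% lower, with medians of −0.07, −0.10, −0.07 and −0.05. The gene that rose was Rdh10, whose enzyme makes the retinaldehyde used for retinoic acid, from 8.82 ± 1.27 to 13.8 ± 0.900 FPKM at 0.2 µM and 24 h (log2 0.60 ± 0.13, limma adjusted p = 0.00109) and by log2 1.02 ± 0.13 at 0.5 µM and 12 h (1.85e-06). Aldh1a1, which converts retinaldehyde to retinoic acid, was at 1.79 ± 0.531 FPKM in (−) and at 0.0159 ± 0.0275 in (+) at 0.5 µM and 24 h, a fall of log2(FPKM + 1) by 1.44 ± 0.19 (limma adjusted p = 2.62e-06). The receptor gene Rxrg was at 0.862 to 1.58 FPKM in the 3 (−) libraries and at 0.0754 to 0.174 in the 3 (+) libraries there, a fall of log2(FPKM + 1) by 0.94 ± 0.19 (limma adjusted p = 0.000354). At such low levels the added 1 sets the size of the value: with a pseudocount of 0.1 it was −2.58 for Rxrg and −4.01 for Aldh1a1. The calls of Rxrg at 12 h were lost without single libraries, the first or second (−) at 0.2 µM, and the first or second (−) or any of the (+) libraries at 0.5 µM.

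The receptor genes Rara and Rarg also fell at all 4 combinations, by 0.49 to 0.78 and 0.59 to 0.88 on the log2 scale. Many of these genes were at low levels: with a minimum of 5 FPKM the counts of genes that fell were 1, 2, 0 and 1. In fits to the groups compared alone the first 3 were 3, 2 and 3.

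Of 15 listed genes reported elsewhere as targets of PBX or MEIS proteins, 14 were found and 6 reached the level for testing. Among these 6, 1, 1, 0 and 2 rose and 3, 4, 2 and 3 fell, with medians of −0.31, −0.38, −0.17 and −0.19. The shares of all genes tested that rose were 8.23%, 12.2%, 11% and 13.7%, and those that fell 19.6%, 26.1%, 21.8% and 24.5%. Ccnd1, which codes for cyclin D1, fell in each comparison, from 7.15 ± 0.944 to 2.75 ± 0.423 FPKM at 0.5 µM and 24 h (log2 −1.12 ± 0.21, limma adjusted p = 0.000199). Dcx, a marker of young neurons, fell at 3 of the 4 combinations, by 1.57 ± 0.18 at 0.5 µM and 12 h (3.62e-07), and stood at −0.37 ± 0.18 at 0.2 µM and 24 h (0.107). Epas1, a hypoxia factor, rose at the same 3, by 1.18 ± 0.17 at 0.5 µM and 12 h (9.92e-06), and Hif1a, its relative, fell at all 4, by 0.34 to 0.45. The call of Hif1a at 0.2 µM and 24 h was lost without the second (+) library, with median-of-ratios scaling, with library weights and in the fit to those groups alone. At 0.2 µM and 24 h Epas1 was called with the replicate block (log2 0.39, adjusted p = 0.0423). Whether any of these genes depends on the 8 members was not tested.

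**Figure D4:**
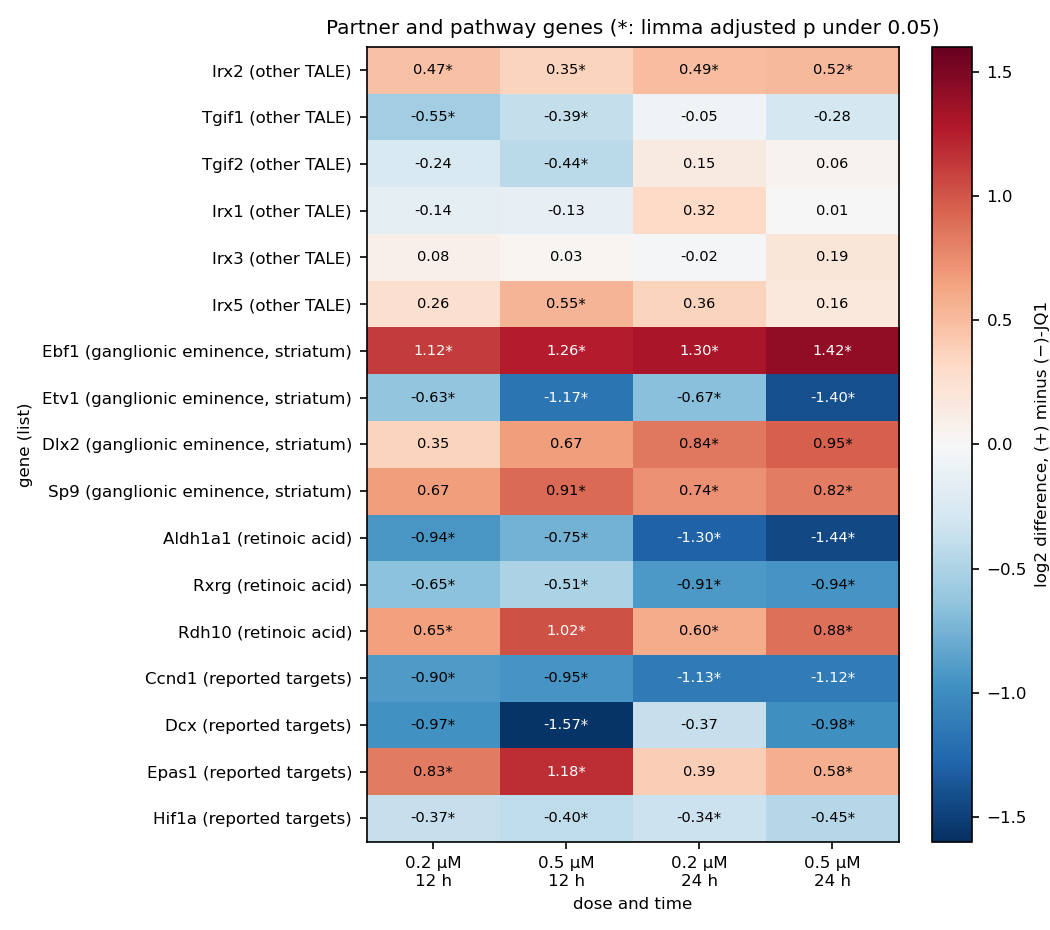
Log2 difference between (+)- and (−)-JQ1 for partner and pathway genes (rows, with their list) at each dose and time (columns), with the value printed in each cell and a star where the limma adjusted p is under 0.05. Irx2, Ebf1 and Rdh10 are higher and Etv1, Aldh1a1, Rxrg, Ccnd1 and Hif1a lower with a star in all 4 columns.

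The pattern of a member over the 24 libraries was compared with that of 9146 genes with a mean of at least 5 FPKM. The libraries fall into 2 sets by enantiomer, so any gene that differs between them scores high, and the values describe likeness only. Meis2 was most like Zfp654, a zinc finger gene (Pearson r = 0.977 over 24 libraries), Cdh2, which codes for N-cadherin (0.970), and Rybp, a Polycomb component (0.967). Pbx3 was most like Efnb2, the ephrin-B2 gene (0.966), Rybp (0.961) and Glcci1 (0.960). Rybp thus appeared beside both members, and rose in (+)-JQ1 by log2 0.61, 0.83, 0.50 and 0.62 in the 4 comparisons. Pbx2 was most like Dnlz, Pou6f1 and Mcf2l (0.958, 0.955 and 0.954).

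Meis3 was most like Dab2ip (0.918), Snx33 (0.909) and L3mbtl2 (0.907), and Pknox1 most like Tecpr2, Pag1 and Meg3 (0.888, 0.888 and 0.885). For Meis1 the nearest were Nrcam, Pds5b and Prkca (0.877, 0.868 and 0.861). The members that differed least had weaker neighbours, Srf, Trim28 and Gtpbp1 for Pbx4 (0.821, 0.813 and 0.805) and Dhx9, LOC100861832 and Lrrc58 for Pknox2 (0.795, 0.788 and 0.775).

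Cell type markers moved with the enantiomer, and their part in the differences of the members was not tested. The marker counts stand beside 8.23%, 12.2%, 11% and 13.7% of all genes tested that rose and 19.6%, 26.1%, 21.8% and 24.5% that fell. The 8 oligodendrocyte lineage markers summed to 1405 to 1837 FPKM in the (−) libraries and 392 to 1098 in the (+) libraries, with 6, 7, 5 and 7 that fell and 0 that rose in the 4 comparisons. The 8 astrocyte markers summed to 1049 to 1872 against 598 to 1156, with 5, 7, 5 and 6 that fell and 1 that rose each time. Neural stem and radial glia markers summed to 3156 to 5398 against 4423 to 7461, with 3, 4, 1 and 5 of 8 that rose and 0, 0, 1 and 1 that fell. Young neuron markers summed to 149 to 270 against 154 to 313, with 1, 2, 1 and 1 of 7 that rose and 4, 5, 2 and 3 that fell.

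Of the markers of the cortical excitatory lineage, summing to 66.1 to 84.0 FPKM in (−) and 82.1 to 124 in (+), Lhx2 was at 22.2 to 49.8 FPKM and Emx2 at 6.49 to 14.8 over all libraries, and 5 of 8 were tested, with 1, 2, 3 and 3 that rose and 2, 2, 1 and 1 that fell. Emx1 and Tbr1, which define the cortical lineage and its early neurons, reached at most 0.279 and 0.219 FPKM in any library. Microglia markers summed to at most 1.53 FPKM, with Aif1, C1qa and C1qb at 0 in all libraries. Endothelial markers summed to at most 6.90 FPKM with Cdh5 at 0, and 1 of 8 was tested, which fell at 24 h at each dose. Pericyte and fibroblast markers summed to 61.2 to 156 FPKM in (−) and at most 67.0 in (+), with 3, 4, 4 and 4 of 4 tested that fell.

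The libraries were alike in depth: whole steps between low values put their relative depth between 0.939 and 1.05. The FPKM sum of a library ran from 431766 to 870653, its median being 471983, while 16953 to 18201 genes were above 0. The 2 libraries that stand apart belong to 0.2 µM and 24 h, replicate 1 of (−) and replicate 2 of (+). Mir5105, a microRNA gene, held 42.7% and 46.9% of their FPKM, and no more than 6.69% of any other library. The second of them held the lowest (+) values of Meis2 and Pbx3, and without both libraries the differences at 0.2 µM and 24 h were 0.85 for Meis2 and 0.99 for Pbx3. Hexim1, a gene known to respond to BET inhibitors, rose at all 4 combinations by log2 1.30 to 1.88, and Myc fell by 1.13 to 2.14. Calls were more often lower than higher, 1136 against 2710, 1682 against 3599, 1523 against 3006 and 1893 against 3380 genes in the 4 comparisons. With scaling by the median of ratios the splits were 1798 against 2267, 2628 against 3001, 2501 against 2443 and 2723 against 2935, and the median of all genes moved up by at most 0.10.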

How the data were processed

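RNA was measured in 24 libraries of cortical neural progenitor cells, 8 groups of 3. Per the labels' protocols, poly(A) RNA was primed with random hexamers, and each group comes from 3 independent preparations, so p-values measure the spread between these. Per the submitters' processing notes, the tools were FastQC and TopHat2 and the genome build was mm9; no version is stated there. The authors deposited FPKM per gene symbol. Which program and annotation gave the FPKM, and whether libraries were scaled to each other, is not given in the sources used here. Overlapping or near-identical genes may share reads. Because the values are FPKM and not counts, no count test was run.

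Each file held 26694 genes, and 58 entries of 29 repeated symbols were left out. A gene entered the test if 3 or more libraries reached 1 FPKM, which left 13801. Values were taken as log2(FPKM + 1), a scale on which changes of low genes are understated, and fitted with limma 3.58.1 in R 4.3.3 (1 mean per group, all 24 libraries, 16 residual degrees of freedom, trend and robust settings). A call is an adjusted p (Benjamini-Hochberg, over every tested gene) under 0.05. The fit was tested on simulated data. Relative depth was read from 1572 of 2306 low genes whose values were whole steps within 2%.

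The members and lists were chosen with earlier results of these data known. Genes named are the 8 members, up to 4 genes per list with the largest difference at 0.5 µM and 24 h among those called in at least 2 of the 4 enantiomer comparisons, the other tested TALE genes, the 3 genes most like each member, and Hexim1 and Myc; some are not reported here. Bcl11b, Pax6, Sp8, Zfp503, Rara, Rarg, Mll1, Crebbp, Ep300, Mir5105 and the cell type markers named one by one were chosen after their values were seen. Alternatives were another pseudocount (0.1), no filter or a minimum of 5 FPKM, median-of-ratios scaling, plain variance settings, library weights, a replicate block, fits to the compared groups alone, and leaving out libraries. The promoter windows come from RefSeq on GRCm38.p6, while the files use mm9, so no other positions are given.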

Additional observations from a re-analysis of the deposited data

How the results depend on the processing

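In the 4 enantiomer comparisons the calls of Pbx3 and Meis2 held under each of the 33 alternatives, and the differences of the other 6 members kept their sign where they were called. Most of these alternatives leave out a library outside the groups of a given comparison, which does not change its difference. The counts moved by over 1.5 times in the cases that follow, and the cause was not tested. In fits to the compared groups alone, calls at 0.2 µM and 24 h numbered 1954 in place of 4529 genes and 2 in place of 5 members. Leaving out 1 library at a time gave 3 to 5 members there and 3 to 6 at 0.5 µM and 24 h, in place of 5. For 24 against 12 h in (−)-JQ1, omitting both libraries with high Mir5105 gave 3372 in place of 2157 genes and 2 in place of 0 members. In (+)-JQ1 at 0.2 µM the 455 genes became 944 with library weights, 156 in fits to the compared groups alone and 169 to 577 without 1 library. In (+)-JQ1 at 0.5 µM the 581 genes became 2349 with library weights, 1021 without the libraries with high Mir5105 and 175 to 900 without 1 library. The 1 member called there became 0 with median-of-ratios scaling, 2 with library weights, 2 without the libraries with high Mir5105, 0 in fits to the compared groups alone and 0 to 2 without 1 library.

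For 0.5 against 0.2 µM in (+)-JQ1 at 12 h, the 89 genes became 137 with a pseudocount of 0.1, 302 with library weights, 52 in the fit to both groups alone and 35 to 109 without 1 library, and the 0 members became 1 with library weights, 1 without the libraries with high Mir5105 and 0 to 1 without 1 library. At 24 h the 297 genes became 582 with library weights, 48 in the fit to both groups alone and 137 to 438 without 1 library, and the 1 member became 0 in the fit to both groups alone. In (−)-JQ1 at 12 h the 0 genes became 1 without a filter and 2 in the fit to both groups alone. In (−)-JQ1 at 24 h the 1 gene became 7 without a filter, 3 without the libraries with high Mir5105 and 1 to 1477 without 1 library, the last without the second (−) library at 0.2 µM, where the 0 members became 1 (range 0 to 1).

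The replicate numbers were not treated as a pairing of libraries: the deviations of same-numbered libraries correlated at over 0.1 in 7 of 12 pairs (−0.345 to 0.358), and 14 of 24 libraries correlated best with their own number. With the number as a replicate block, 3960, 5438, 4660 and 5399 genes and 4, 5, 5 and 5 members were called in the enantiomer comparisons, and no member's call changed in any comparison. A minimum of 5 FPKM left Pbx4 out of the test. Depth was alike between libraries, and the values carry no counts, so no counting interval is given.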
